A study of Drosophila melanogaster with 5 samples.

Results

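The binding sites of Zw5 in Drosophila melanogaster embryos are described here from 1 ChIP-seq library, called once against input DNA and once against a preimmune serum precipitate. All 695 intervals of the input list and all 355 of the preimmune list were used. The main set holds the 346 input-list intervals that overlapped a preimmune-list interval by at least 1 bp on the same sequence, called retained peaks below, of 3115 input-list intervals of the 3 proteins in the series. The other 349 are called input-only peaks. No measured height entered this choice directly, but a call in each list is itself a threshold on height. Retained peaks are therefore higher and wider than input-only peaks in part by construction.

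The Zw5 precipitate, the preimmune serum precipitate and the input DNA all came from wild-type Oregon-R embryos collected over 12 h, so each is a mixture of embryonic stages and of all cell types. The Zw5 antibody was raised in rabbit against residues 98 to 302. Chromatin was fixed in 1.8% formaldehyde for 15 min, and 50 µg went into a precipitation. The sample label names preimmune rabbit sera, whereas the protocol names rabbit IgG, and the sources do not settle which was sequenced. Each library was sequenced once, in single reads of 51 cycles. With 1 library, peaks are the units, no p-value was computed, and the intervals on shares (95%, Wilson) and on pileups or densities (95%, exact Poisson) cover counting error only, not variation between embryos or precipitations. All positions are on dm3, counted from 1.

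Zw5 (zeste-white 5) is the product of the X-linked gene dwg. It is a DNA-binding protein with an N-terminal zinc-finger-associated domain, which mediates contacts between proteins of its class, and an array of C2H2 zinc fingers. It is best known for binding scs, one of a pair of boundary elements that flank heat-shock genes in the fly, where it acts as an insulator protein. Insulator, or architectural, proteins mark sites that can block an enhancer from a promoter and can pair with distant sites.

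The heights of the retained Zw5 peaks had a low and a broad high mode, with fewer peaks between them. Of the input-list peaks, 49.8% (46.1 to 53.5) were retained against preimmune serum. The retained peaks had a median fold over input of 11.7 (interquartile range 5.41 to 23.7, lowest 1.92, highest 36.8), but few lay near that median. There were 2 retained peaks with a fold under 2.5, 75 with 2.5 to 5, 63 with 5 to 7.5 and 26 with 7.5 to 10. In the next steps of 2.5 the count was 11 for folds of 10 to 12.5, 20, then 11 for 15 to 17.5, 21, 20, and 32 for 22.5 to 25. It was 25 for 25 to 27.5 and 18, 12, 5 and 5 in the steps above. Folds of 10 to 20 were thus not empty, with 63 of the 346 peaks (18.2%), and a level of 10 is used below as a convenient division and not as a natural gap. The input-only peaks had a single low mode, with a median fold of 3.51 (3.10 to 4.13). Of them, 308 had a fold of 2.5 to 5, and 1 exceeded 10. Folds are the authors' values, used to describe and rank peaks within a list.

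**Figure D1:**
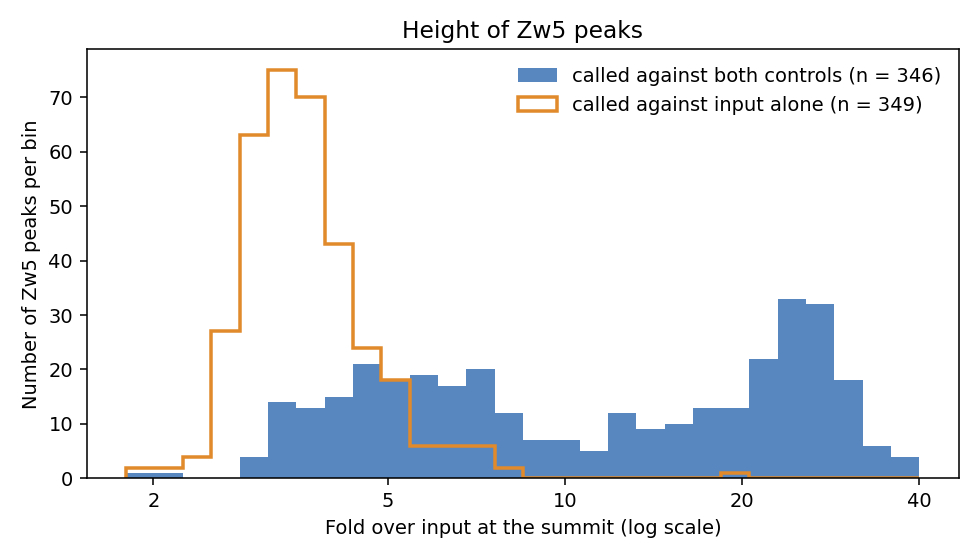
Number of Zw5 peaks per bin of fold over input (x axis, log scale) for the 346 retained peaks (filled) and the 349 input-only peaks (outline). The retained peaks form a low and a broad high mode, and the input-only peaks sit almost wholly below 10.

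Retention followed height. Of the input-list peaks with a fold under 3, 3 of 72 were retained (4.17%, 1.43 to 11.5), and of those from 3 to 5, 74 of 321 (23.1%, 18.8 to 28.0), against 49.8% of the whole list. The share was 73.6% (65.1 to 80.6, 89 of 121) for folds of 5 to 10 and 98.4% (91.7 to 99.7, 63 of 64) for 10 to 20. All 117 peaks with a fold of 20 or more were retained. The rule itself was not sharp-edged in these lists, since the smallest overlap of a retained peak was 241 bp, which is the whole of the shortest interval. That peak, 2L 1909736 to 1910033, had a fold of 4.43 against input and 3.82 against preimmune serum. The nearest miss was the input-list interval U 5304819 to 5305169, 162 bp away from a preimmune-list interval, with a fold of 3.63. Only 10 of the input-only peaks lay within 1 kb of a preimmune-list interval.

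The 10 highest retained peaks, ranked by fold over input, had folds over preimmune serum of 18.4 to 35.4. The highest was 2L 4187230 to 4188268, 1039 bp wide, with a fold of 36.8 against input and 34.2 against preimmune serum. Its summit held a pileup, the number of fragments stacked there, of 415 (376 to 457). The second, 3R 3951694 to 3952608, had folds of 36.5 and 20.6. These 2 sites were alike over input and differed over preimmune serum, so the order of the highest peaks depends on the control. The third, X 17315805 to 17316529, had folds of 36.2 and 33.6, and the fourth, 3R 4557007 to 4558042, 36.2 and 18.4. They were followed by 3L 11054052 to 11056153 (35.5 over input, 19.8 over preimmune serum), 3L 5145263 to 5146119 (34.4, 20.2) and 2L 7026749 to 7027738 (33.9, 29.2). In 9 of the 10 the fold over input, by which they were ranked, was the larger value. The last 3 were 2L 8307742 to 8308694 (33.4, 20.5), 3R 13630549 to 13631451 (32.9, 35.4) and 2L 18695105 to 18696288 (32.7, 19.7). Their pileups ran from 389 to 470 and their input backgrounds from 10.3 to 13.3 fragments, so stack and background differed among the 10 by similar proportions. The peak ranked ninth by fold, at 3R 13630549, held the highest pileup of all, 470 (428 to 514).

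The highest Zw5 stacks came close to 2 times the shortest interval. The shortest Zw5 interval was 241 bp, which MACS2 by default sets to the fragment length, and 2 fragments per position, 1 from each strand, would then give at most 482 at a summit if duplicate reads were dropped. No source used here states the treatment of duplicates. The highest Zw5 pileup was 97.5% of that number. For Pita, a zinc-finger protein of the same class, it was 436, equal to 2 times its shortest interval of 218 bp. ZIPIC, the other protein of the series, reached 61.2% in a library of lower background. Of the retained peaks, 67 (19.4%) of Zw5 and 360 (26.1%) of Pita had a pileup over 80% of their number, and none of ZIPIC did. The genome-wide background of the Zw5 library is taken here as the lowest background in its input list, 10.3 fragments. At that background a stack of 482 is a fold of 42.8, so folds near the top of the list may understate differences between sites if that ceiling applied. The Poisson intervals on the highest pileups would then not hold either, as the upper bound of 514 lies above 482.

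High peaks were wide. The retained peaks had a median width of 590 bp (interquartile range 399 to 814), against 300 bp (265 to 378) for the input-only peaks. Width of 500 bp or more was found in 56.6% (51.4 to 61.8) of retained and 6.02% (3.97 to 9.02) of input-only peaks, and 38 retained but 0 input-only peaks reached 1000 bp. In 4 groups of nearly equal size by pileup, from low to high, the median width was 349, 439.5, 726 and 896 bp. Pileup and width had a Spearman rho of 0.87 over the 346 retained peaks and 0.54 over the 349 input-only peaks. This is a description across peaks of 1 library, and width and pileup come from the same stack of fragments. The 5 widest were 3L 11054052 to 11056153 (2102 bp), 2R 11878409 to 11880486 (2078 bp), 2R 3452903 to 3454715 (1813 bp), 3R 4169018 to 4170510 (1493 bp) and 2L 18688597 to 18690037 (1441 bp). In each of them the summit lay far from the middle, at 80.7%, 20.4%, 74.2%, 74.1% and 77.7% of the interval.

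**Figure D2:**
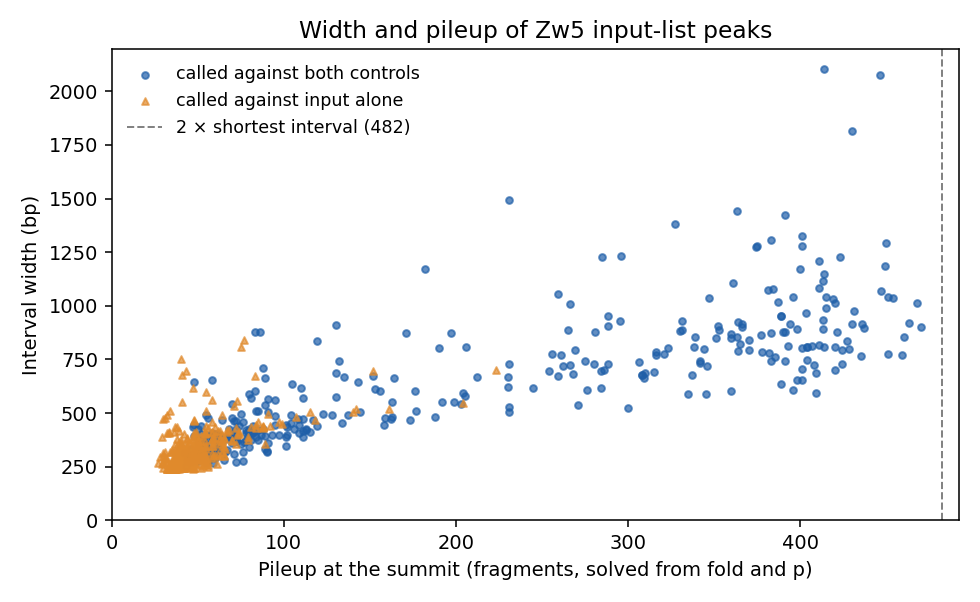
Interval width (y axis, bp) against the pileup at the summit (x axis, fragments) for retained peaks (circles) and input-only peaks (triangles). Width grows with pileup, the highest stacks end just left of the dashed line at 482 fragments, and the 3 widest peaks stand apart.

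Summits lay mostly near the centre of the intervals, and within 10 bp of each other under both controls. Both calls used the same Zw5 fragments, so the second is no separate measurement of the summit. The median position was 50.2% of the way along the interval (interquartile range 45.1 to 55.6) in retained peaks and 50.0% (43.5 to 56.8) in input-only peaks. The middle 20% of the interval held the summit of 75.7% (70.9 to 79.9) of retained and 65.0% (59.9 to 69.9) of input-only peaks. The outermost 20% on either side held 1 retained and 11 input-only summits. Among the 348 overlapping pairs of intervals, the summits of the 2 lists were at the same base in 200 (57.5%, 52.2 to 62.6) and within 10 bp in 336 (96.6%, 94.1 to 98.0). The preimmune-list interval was shorter, with a median of 89.2% of the input-list width (78.6 to 95.2).

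In 3 pairs the summits were more than 100 bp apart, and 2 of these belong to the 5 widest intervals. At 2R 3452903 to 3454715 the summits of such a pair lay 901 bp apart, at folds of 30.3 over input and 22.5 over preimmune serum. At 2L 18688597 to 18690037 they lay 853 bp apart, at folds of 25.6 and 8.20. In the third, X 13457461 to 13457823, the distance was 108 bp. In all, 2 input-list intervals overlapped 2 preimmune-list intervals each, and these were the intervals at 2R 3452903 and 2L 18688597. Both thus also overlapped a preimmune-list interval with a nearer summit. At 2L 18688597 that interval had a fold of 16.0 over preimmune serum. Summits of both lists lay within 100 bp for 345 of the retained peaks, all but X 13457461. A wide input-list interval can therefore be counted as 1 peak where the other call made 2.

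The Zw5 stack entered the preimmune call at about 52% of its height in the input call. Fold and p together fix the pileup and the background at a summit, and in the input list 100% of the solutions lay within 0.05 of a whole fragment. Solved the same way, the preimmune-list pileup was 0.520 times the input-list pileup at the same peak (median over 348 pairs, interquartile range 0.508 to 0.523). When the scaled pileup was kept with decimals in the fold and cut to whole reads in p, a choice made after seeing these values, 1 factor of 0.5249 returned the deposited p of 199 of 200 peaks with equal summits, within 0.02 on the −log10 scale. The same step gave 0.5325 for Pita, for 803 of 803 peaks. The lowest background in the preimmune list, divided by 0.5249, was 10.3 fragments, the same as in the input list. MACS2 by default scales the larger of the 2 libraries down to the smaller, and the setting used here is not stated. The lists give no total of reads. Solved freely with that factor, the preimmune list returned the input-list pileup at 198 of the 199 equal summits for which a solution was found.

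At retained Zw5 summits the preimmune background was close to the input background on average but varied from site to site. Over 330 retained peaks with summits within 10 bp, the ratio of the preimmune to the input background, both at the depth of the Zw5 library, had a median of 1.09 (interquartile range 0.899 to 1.44, lowest 0.445, highest 3.70). It was above 1 at 183 of them, below 1 at 124 and within 0.005 of 1 at the other 23. Only 22 had more than 2 times the input background. The median ratio was 1.12 in the upper part of the set by pileup and 1.05 in the lower. All of these peaks had passed the preimmune call, which leaves out low stacks over a high preimmune background. The ratios, above all those of the lower part, are therefore shaped by the rule and do not describe all Zw5 summits. The fold over input divided by that over preimmune serum therefore moved with the site, with a median of 1.13 (0.954 to 1.46), and 114 of the 346 retained peaks (32.9%, 28.2 to 38.1) were higher over preimmune serum.

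**Figure D3:**
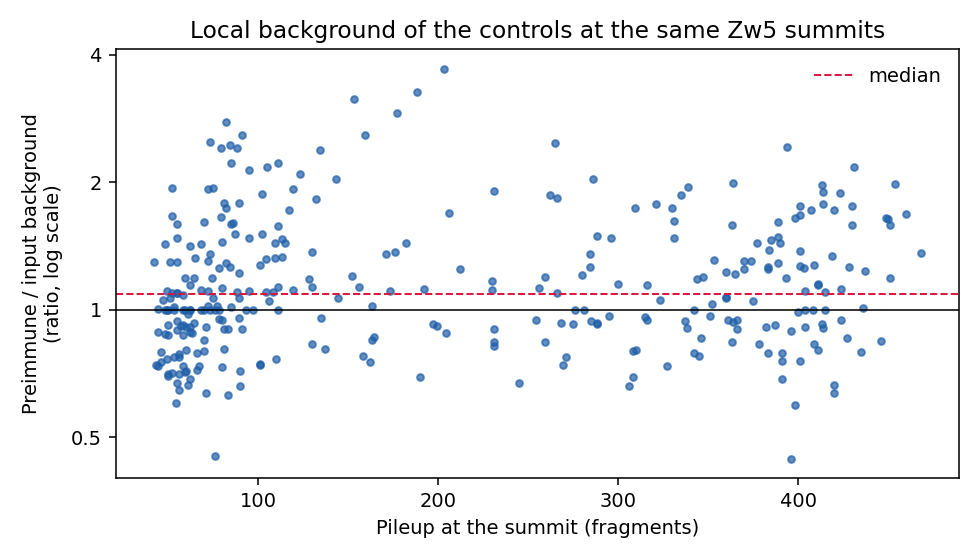
Ratio of the preimmune to the input background (y axis, log scale) against the pileup (x axis, fragments) at 330 retained Zw5 summits. Points scatter on both sides of 1 at every pileup, and the dashed line is the median of 1.09.

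Rescaled to the depth of the preimmune call, most input-only peaks still reached the lowest p of that list, but most missed a stricter bar. With pileup and input background both multiplied by 0.520, 296 of the 349 input-only peaks still reached it, and 294 did so with 0.5249 (84.2%, 80.0 to 87.7). With the stricter bar, 125 reached the median p of the lowest 10% of the preimmune list. For Pita the count at its own factor was 379 of 464 (81.7%, 77.9 to 84.9). For the 294 Zw5 peaks, a preimmune background of at least 1.49 times the input background (median, interquartile range 1.19 to 1.84) would have brought p to the lowest in the list. At retained summits, which were called with that background, 71 of the 330 measured ratios were above 1.49. Of the 294 peaks, 62 needed more than 2 times, and 22 of the 330 ratios were above 2. A multiple of 3.70 or less was enough for 285, but 3.70 is the single highest of the 330 ratios. Only p at the summit was rescaled, and the length of the interval was not considered. Which background the preimmune library had at input-only peaks was not measured.

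The highest input-only peak stood far above the others of its kind. It lay on unplaced sequence, at Uextra 5223878 to 5224579, with a fold of 19.8 and a pileup of 223. A preimmune background 14.4 times the input background would have been needed to bring it to the lowest p. The next were Uextra 26599213 to 26599709 (8.15-fold), 3R 12031016 to 12031474 (8.01), and Uextra 27485225 to 27485668 and 3R 788343 to 788773 (both 7.53). For these, the multiple was between 4.09 and 4.48. Of the 5 highest input-only peaks, 3 were thus on Uextra, where no Zw5 peak was retained.

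In the other direction, 7 of the 355 preimmune-list peaks had no input-list interval. They were low, with folds over preimmune serum of 2.92 to 5.73. They were Uextra 21021258 to 21021714 (5.73), U 4470774 to 4471237 (4.75), X 6181972 to 6182212 (4.58), Uextra 621679 to 622056 (4.50), 3R 8248326 to 8248591 (4.47), 3L 13034118 to 13034363 (3.44) and X 21637065 to 21637311 (2.92). In 3 of the 7 the sequence was unplaced. To hide them, the input background would have to be 1.67 to 3.81 times its genome-wide level of 10.3 fragments.

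High Zw5 peaks were rare on X. On the 5 large arms the retained peaks numbered 43 on X, 82 on 2L, 48 on 2R, 71 on 3L and 98 on 3R. X thus held 12.6% (9.47 to 16.5), with 18.7% of the summed arm length up to the highest coordinate in any list. The median fold was 5.58 on X (interquartile range 4.26 to 7.57), against 16.6 on 2L, 13.0 on 2R, 10.0 on 3L and 14.8 on 3R. A fold of 10 or more was reached by 8 of the 43 peaks on X (18.6%, 9.74 to 32.6), against 171 of the 299 on the autosomal arms (57.2%, 51.5 to 62.7). By arm the autosomal share was 54.9% on 2L, 54.2% on 2R, 50.7% on 3L and 65.3% on 3R, and the interval for X overlapped none of the 4.

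Per 10 Mb, X held 3.69 peaks with a fold of 10 or more (1.59 to 7.27), against 18.1 (15.5 to 21.0) on the autosomal arms, where single arms ran from 13.0 to 23.0. Peaks with a fold under 10 numbered 16.1 per 10 Mb on X (11.2 to 22.4) and 13.5 (11.3 to 16.1) on the autosomal arms, and these intervals overlap. The median pileup was 62 on X and 203 on the autosomal arms. The median input background was 11.2 fragments on X and 13.4 on the autosomal arms. The genome-wide level of 10.3 fragments is by definition the lowest background in the list, so no peak can lie under it. What lowered the folds on X was not tested. Measured over preimmune serum, 7 of 43 peaks on X (16.3%, 8.12 to 30.0) had a fold of 10 or more, against 153 of 299 (51.2%, 45.5 to 56.8) on the autosomal arms.

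For the other proteins the shares on X and on the autosomes were closer together. For Pita, 62.0% (56.2 to 67.4) of the retained peaks on X and 67.7% (64.8 to 70.4) on the autosomal arms had a fold of 10 or more. For ZIPIC the shares were 62.0% (50.3 to 72.4) and 71.7% (66.9 to 76.0). The 3 libraries differ in depth, and the difference between proteins was not tested. The 5 highest Zw5 peaks on X were X 17315805 to 17316529 (36.2-fold over input), X 17199509 to 17200241 (30.4), X 19373662 to 19374673 (24.5), X 17042082 to 17043091 (23.4) and X 15217198 to 15217853 (21.8). Those were also the whole of the X peaks with a fold of 20 or more, against 112 on the autosomal arms.

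**Figure D4:**
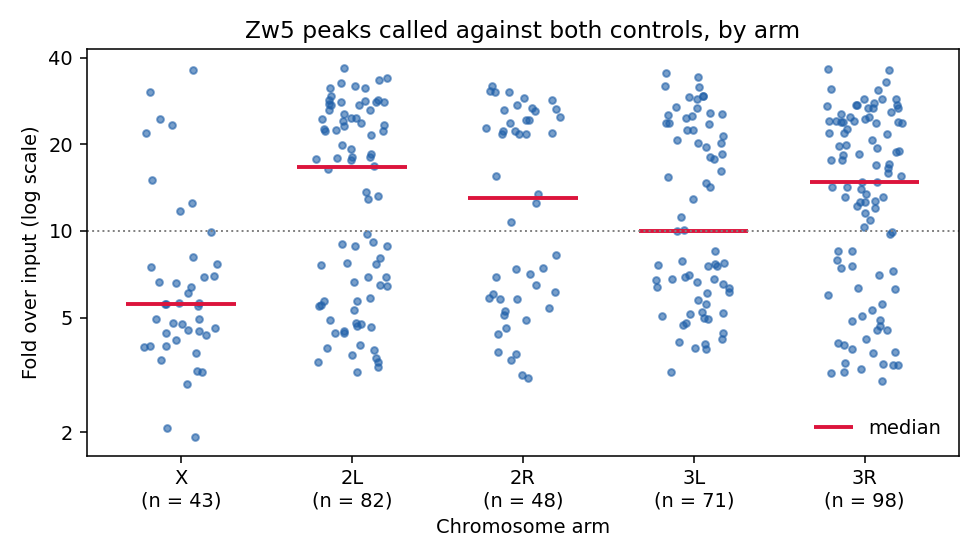
Fold over input (y axis, log scale) of each retained Zw5 peak on X, 2L, 2R, 3L and 3R (x axis). Red bars are medians and the dotted line marks a fold of 10. Most points on X lie below the line, and each autosomal arm has many above it.

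Off the large arms nearly all Zw5 peaks were lost against preimmune serum. Of 55 input-list peaks there, 4 were retained (7.27%, 2.86 to 17.3), against 342 of 640 on the large arms (53.4%, 49.6 to 57.3). On chromosome 4, 0 of 9 were retained (upper Wilson bound 29.9%), on Uextra 0 of 33 (10.4%), on U 2 of 9, on 3RHet 0 of 2 and on 2RHet 2 of 2. The lost peaks had a median fold of 3.63 on chromosome 4 and 4.06 on Uextra, near the 3.36 to 3.57 of input-only peaks on the large arms. Some were higher, such as 19.8, 8.15 and 7.53 on Uextra and 6.64 on chromosome 4. Over the whole input list, 73.6% of peaks with a fold of 5 to 10 and 98.4% with 10 to 20 were retained. Whether height accounts for the loss off the large arms was not tested. The 4 retained were 2RHet 369963 to 370575, with folds of 13.6 over input and 4.52 over preimmune serum, 2RHet 2629606 to 2630062 (6.82, 6.39), U 5303788 to 5304664 (4.21, 6.13) and U 10021835 to 10022181 (3.04, 4.58). In dm3, U and Uextra are unplaced sequence and the Het sequences assembled heterochromatin, both rich in repeats.

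A minority of Zw5 peaks came in runs, and the peaks in runs were higher than the single ones. Linking summits no more than 5 kb from the next gave 41 runs with 95 of the retained peaks, and 251 peaks were single. There were 32 runs of 2 summits, 6 of 3, 2 of 4 and 1 of 5, and the median span was 2556 bp (588 to 9753). The median fold was 18.6 (interquartile range 11.0 to 26.6) in runs and 7.63 (4.92 to 22.1) in single peaks. A fold of 10 or more was found for 73 of the 95 (76.8%, 67.4 to 84.2) and 107 of the 251 (42.6%, 36.7 to 48.8). Over preimmune serum the medians were 17.1 in runs and 6.13 in single peaks.

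The run with most summits lay on 3R, from 21877594 to 21885293. Its 5 peaks had folds over input, from left to right, of 27.9, 16.5, 19.7, 12.2 and 3.77. The run at 3R 4548603 to 4558042 had 4 peaks of 17.7, 20.8, 10.4 and 36.2, the last being the fourth highest of all. The run at 3L 5129067 to 5139528 had 4 peaks of 19.6, 18.6, 7.55 and 26.8. In these, peaks of unlike height stood side by side. The next were 2R 4809772 to 4815892, with folds of 21.7, 22.2 and 13.4, and 3R 4166496 to 4173595, with 25.9, 15.5 and 13.1. Over all 54 pairs of neighbours within 5 kb, the higher fold was 1.77 times the lower (median, 1.19 to 3.43), and the folds of left and right neighbour had a Spearman rho of 0.069. For the 285 pairs farther apart the ratio was 2.14 (1.24 to 4.10) and rho 0.050. The difference between these ratios was not tested.

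Among retained peaks, Zw5 summits had a neighbour within 5 kb more often than those of the other proteins, but not over the whole input lists. Another retained summit of the same protein lay within 5 kb for 27.5% (23.0 to 32.4) of Zw5, 14.0% (12.3 to 16.0) of Pita and 15.6% (12.6 to 19.1) of ZIPIC peaks. Over all input-list peaks the shares were 20.0% (17.2 to 23.1) for Zw5, 20.6% (18.8 to 22.5) for Pita and 16.7% (13.9 to 20.0) for ZIPIC, and these intervals overlap. On the large arms the gap between neighbouring Zw5 summits had a median of 165 kb and a mean of 321 kb, with the shortest 10% of the gaps under 3.03 kb. Pita, with about 4 times as many peaks, had a median of 52.1 kb, and its shortest 10% ended at 6.95 kb. For ZIPIC these were 155 and 6.17 kb. Among retained peaks the share within 2 kb was 11.0% (8.11 to 14.7) for Zw5, 5.07% (4.03 to 6.36) for Pita and 8.20% (6.08 to 11.0) for ZIPIC, and the Zw5 and ZIPIC intervals overlap. Within 1 kb the shares were 1.16% (4 of 346) for Zw5, 1.88% for Pita and 4.92% for ZIPIC. At that distance Zw5 had the lowest share, so its close neighbours lay mostly between 1 and 5 kb away. These differences between proteins were not tested, and the number of peaks and the depth differ between the libraries. Among the input-only peaks taken alone, 4.58% (2.84 to 7.32) had another such peak within 5 kb, against the 27.5% of retained peaks among themselves.

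**Figure D5:**
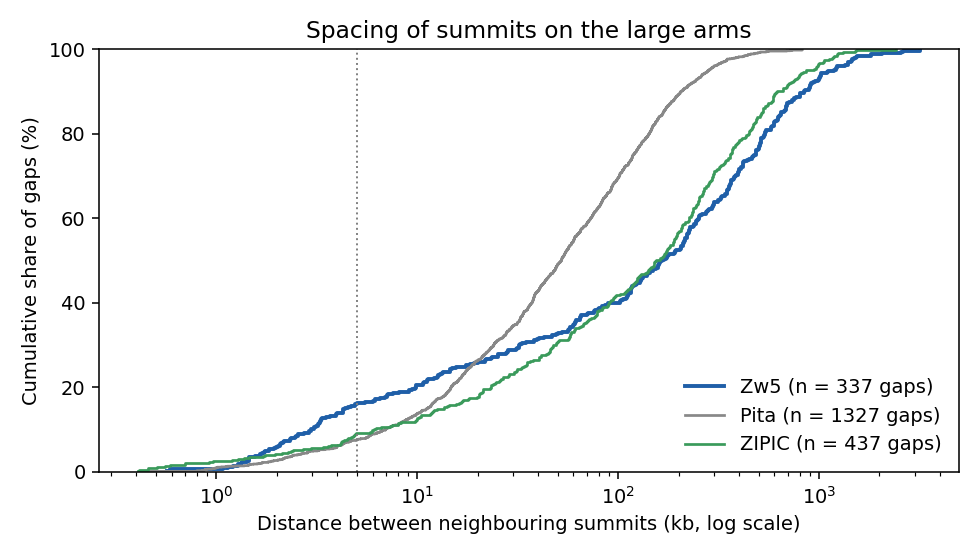
Cumulative share of gaps between neighbouring summits (y axis, %) against the gap (x axis, kb, log scale) for retained Zw5, Pita and ZIPIC peaks on the large arms. The Zw5 line lies above the others between about 2 and 10 kb, and the dotted line marks 5 kb.

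Runs were most frequent on 2L and 3R and rare on X. These arms also held the most (3.59 and 3.52) and the fewest (1.98) retained peaks per Mb, with 2.41 on 2R and 2.96 on 3L. The shares below are not adjusted for that density. Peaks in runs made up 4.65% (1.28 to 15.5, 2 of 43) of the retained peaks on X, 39.0% (29.2 to 49.8, 32 of 82) on 2L, 22.9% (13.3 to 36.5, 11 of 48) on 2R, 16.9% (9.94 to 27.3, 12 of 71) on 3L and 38.8% (29.7 to 48.7, 38 of 98) on 3R. The single run on X joined X 3997980 to 3998594 (15.1-fold) and X 3999800 to 4000172 (4.78-fold). High peaks taken by themselves were in runs in 1 of 8 cases on X (12.5%, 2.24 to 47.1) and in 72 of 171 (42.1%, 35.0 to 49.6) on the autosomal arms, and with 8 peaks the 2 intervals overlap. At a coarser scale, 117 windows of 1 Mb on the large arms held a median of 2 summits, 17 held 0, and 25 windows with 5 or more held 161 summits (47.1%). The densest, 12000001 to 13000000 on 2L, held 14 summits with a median fold of 21.2 (3.50 to 31.4), 11 of them with a fold of 10 or more and 11 in 5 runs. The next were 18000001 to 19000000 on 2L and 4000001 to 5000000 on 3R, with 9 summits each.

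Low Zw5 peaks, retained or not, often lay where Pita or ZIPIC was also called. A retained Pita or ZIPIC peak lay on 150 of all 346 retained Zw5 peaks (43.4%, 38.2 to 48.6) and on 250 of the 349 input-only peaks (71.6%, 66.7 to 76.1). Counting Pita only, it lay on 84 retained (24.3%) and 182 input-only peaks (52.1%). Counting ZIPIC only, it lay on 88 retained (25.4%, 21.1 to 30.3) and 87 input-only peaks (24.9%, 20.7 to 29.7), and these intervals overlap. The higher share at input-only peaks was thus seen for Pita and not for ZIPIC. Of the retained peaks, Pita or ZIPIC lay on 25 of the 180 Zw5 peaks with a fold of 10 or more (13.9%, 9.59 to 19.7), against 125 of the 166 with a fold under 10 (75.3%, 68.2 to 81.2). Among retained peaks with a fold under 10, the intervals of this share overlapped between X (27 of 35, 77.1%, 61.0 to 87.9) and on the autosomal arms (95 of 128, 74.2%, 66.0 to 81.0).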

How the data were processed

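Zw5 was precipitated from whole-embryo chromatin and sequenced in 1 library. Per the submitters' processing notes, the authors worked on build dm3 with cutadapt, with Bowtie and with MACS2 2.1.0.20140616; no arguments are stated. The deposited lists have 10 narrowPeak columns: the ratio (fold) at the summit over the control's local background, −log10 p, −log10 q, the summit offset, and a score, which in the deposited files is 10 × −log10 q without its decimals. The names of the Zw5 peaks give chromatin preparation A. That of the controls is not stated.

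Pileup and background were solved from fold = (pileup + 1)/(background + 1) and p as the Poisson upper tail. The solution was tested on data simulated with the same formula, over a narrower range of pileups and backgrounds than in the lists. That test covers the inversion and not the formula. Overlap required 1 bp. Shares on arms, spacing and the fold level of 10 were described without tests. Arm lengths are the highest coordinate in any list. The named regions were the 10 highest retained, 5 highest input-only, 5 widest, 5 runs with most summits, 5 highest on X, all retained off the large arms, all in the preimmune list alone, and the pairs nearest the overlap rule. The members and comparisons were chosen with earlier results of these data known. Alternatives changed the overlap, the thresholds, the sequences, the list and the distance. The gene table in use is on another build, so no genes were assigned to peaks and no sequence was read. Calculations used scipy 1.17.1, numpy 2.4.6, statsmodels 0.14.6 and pandas 2.3.3 in Python 3.11.15, and figures matplotlib 3.10.9.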

Additional observations from a re-analysis of the deposited data

How the results depend on the processing

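Of 50 alternatives, 38 left their value within its interval (counts within 1.5 times) and 12 moved it. The retained count ran from 276 (fold of 4 or more in both lists) to 346. That fold bar raised the median width to 689 bp and the median fold to 17.3. Over all input-list intervals the median width was 387 bp, the median fold 4.45 and the share with another summit within 5 kb 20.0%. Preimmune-list intervals found in the input list had a median width of 485.5 bp. Within 2 kb and 20 kb the share was 11.0% and 39.9%. The pileup ratio was 0.509 in lower and 0.523 in upper peaks and 0.5249 with the scaled pileup cut to whole reads, an alternative chosen after seeing the data. The number of input-only peaks that reached the bar fell to 125 with the median p of the lowest 10% of the preimmune list. A stricter bar leaves fewer peaks by construction; for the other shifts the cause was not tested. The share on X and the summit position stayed within their intervals under every alternative run for them. No paired analysis was possible because each group has 1 library and the results come from no test. Depth limits the low peaks most: a pileup of 27, the lowest input-only value, has a counting interval of 17.8 to 39.3.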
